A study of Rattus norvegicus with 15 samples.

Results

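The MAP kinase feedback inhibitors are genes whose products switch off the Ras-ERK pathway and related kinase cascades, and which those cascades themselves switch on in many cells. The 7 genes described here are Dusp1, Dusp4, Dusp5, Dusp6, Spred1, Spred2 and Trib1, chosen by symbol among 18278 RefSeq transcript records counted in rat brain. Each of the 7 was found, with 1 record per gene and with no exon overlapping another record, so no member shares reads with a second record of its own gene. All 7 passed the filter on low counts in the hippocampus (12728 records tested), and 3 of the 7 passed it in the cortex (3884 records tested).

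In neurons, synaptic activity, calcium entry and neurotrophin receptors activate Ras, which drives the kinases Raf, MEK and ERK in turn. Active ERK induces transcription of immediate early genes and also of its own inhibitors, so that the inhibitors' transcripts are used as a readout of recent pathway activity. Dual-specificity phosphatases (Dusp genes) remove phosphate from both the threonine and the tyrosine that activate MAP kinases, Spred proteins act at the membrane between Ras and Raf, and the pseudokinase Trib1 binds MEK and the ubiquitin ligase Cop1.

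VNS rats received vagus nerve stimulation from an implanted device, 30 min daily for 4 days. Control rats had a sham implant. Hippocampal RNA, depleted of ribosomal RNA, gave 4 VNS and 3 control libraries. The animals behind these had also spent 10 min in a test of novelty preference daily from day 2 to day 4. Cortical RNA, selected for polyA, gave 4 VNS and 4 control libraries, and the design text ties the task to the hippocampal animals. Brains were taken directly after the last stimulation. The labels do not state strain, sex or age, and nothing in them ties libraries to litters or days, so p-values measure the spread between these libraries.

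Hippocampal libraries held 16728486 to 51463555 counts and cortex libraries 329130 to 435296. VNS library 3 of the hippocampus was the shallowest in mRNA, with 74.3% of its counts in ribosomal and 7SL RNA records. Hippocampal control libraries 1 and 2 stood apart from the other 5 libraries in genes that mark brain regions. Summed over 8 annotated markers of forebrain excitatory neurons, the VNS libraries had 3021 to 4727 CPM, against 695 CPM in control library 1, 215 CPM in control library 2 and 3607 CPM in control library 3. CPM is the read count of a record relative to the scaled library size. Neurod6 encodes a defining transcription factor of those neurons, and its values were 58.9 to 207.4 CPM in VNS libraries, against 0.65, 1.05 and 81.4 CPM in control libraries 1, 2 and 3. Thus 2 of the 3 control libraries nearly lacked this marker. Sums of hippocampal markers were lower in these 2 than in every VNS library, but such markers were not absent. Over control libraries 1 to 3, pyramidal neuron markers summed to 186, 263 and 1017 CPM, beside 758 to 1412 CPM for VNS libraries. Dentate granule neuron markers summed to 115, 59.3 and 183 CPM in the same order, beside 135 to 297 CPM. Of these, Prox1 lay inside the VNS range in control library 1 (89.8 CPM) but below it in control library 2 (15.3 CPM). Summed markers of thalamus were at 24.3 to 151.6 CPM in VNS libraries, against 1313, 512 and 59.9 CPM in control libraries 1, 2 and 3. In control library 2 that sum was mostly Slc17a6 (347.4 CPM) and Calb2 (125.5 CPM). Lef1 (14.0 CPM) and Ramp3 (11.3 CPM) were also above every VNS library, where their highest values were 5.29 and 10.2 CPM. Prkcd (11.8 CPM) and Gbx2 lay within the range of the VNS libraries. Summed markers of midbrain and brainstem were at 5.18 to 16.1 CPM in VNS libraries, against 30.1, 101.5 and 4.54 CPM in control libraries 1, 2 and 3. In control library 1 that sum was mostly Glra1 (18.8 CPM). Tal1 was at 5.52 CPM there, just above the highest VNS library (5.15 CPM). Gata2, Gata3 and Pax7 lay within the range of the VNS libraries in control library 1. Fold changes of the members, the named pathway genes and the pathway lists are therefore also given without control libraries 1 and 2. Ratios between members, levels per kb and likeness of pattern are given over all 7 libraries only. The part of tissue makeup in these results was not tested. In bulk tissue, fewer cells of a type and less RNA per cell cannot be told apart.

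Promoter sequences are shown for Dusp1 and Dusp5, the pair of members whose levels across the hippocampal libraries were least alike. RefSeq windows on assembly GRCr8, from 250 bases before to 50 bases after the gene start, matched 5 of the 7 members (Dusp1, Dusp5, Dusp6, Spred1 and Spred2). Both strands were searched for the cAMP response element TGACGTCA, for its core TGACG, and for the CArG box, bound by serum response factor. The other motifs were the AP-1 site TGANTCA, the ETS site CCGGAAGT, the GC box GGGCGG and the TATA box, searched as TATAAA. Capitals mark the core of the cAMP response element, alone or within the full element, and the CArG boxes. The Dusp1 window is chr10:17184603-17184902 and the Dusp5 window chr1:262543524-262543823, both on the plus strand.
Dusp1: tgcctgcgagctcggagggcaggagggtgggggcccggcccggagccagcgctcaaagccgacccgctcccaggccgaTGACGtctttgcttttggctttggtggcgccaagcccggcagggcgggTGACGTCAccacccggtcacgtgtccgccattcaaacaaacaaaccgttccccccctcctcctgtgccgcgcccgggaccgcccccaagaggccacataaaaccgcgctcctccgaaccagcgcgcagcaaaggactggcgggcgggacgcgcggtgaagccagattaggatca
Dusp5: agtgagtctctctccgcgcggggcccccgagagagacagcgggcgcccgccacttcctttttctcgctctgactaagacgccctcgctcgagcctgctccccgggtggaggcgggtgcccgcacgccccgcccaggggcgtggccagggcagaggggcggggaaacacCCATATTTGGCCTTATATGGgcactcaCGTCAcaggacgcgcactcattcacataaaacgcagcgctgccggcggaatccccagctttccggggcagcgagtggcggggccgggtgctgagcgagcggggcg

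The Dusp1 window held the full cAMP response element, beginning 124 bases upstream of the start, and a further core 172 bases upstream. The full element reads the same on both strands and contains the core on each, so the Dusp1 window counts 3 matches to the core. The Dusp5 window held 2 CArG boxes side by side, beginning 82 and 72 bases upstream, and a core on the minus strand 55 bases upstream. Among 33469 windows of the same length, 1.83% held the full element, 21.2% the core and 1.64% a CArG box. The Spred2 window held the core 51 bases upstream, and neither the core nor a CArG box was found in those of Dusp6 and Spred1. No member window held the AP-1, ETS or TATA letters, which 7.33%, 3.81% and 14.2% of all windows held, and 4 of the 5 held a GC box, against 33.1% of all. These matches are letters in a window and were not tested for use.

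Across the hippocampus, no member differed between VNS and control libraries past the threshold of an adjusted p of 0.05. Dusp4, Dusp5, Dusp6 and Spred2 had higher mean levels in VNS libraries, at fitted folds of 1.76, 2.30, 1.47 and 1.33, and Dusp1 and Trib1 had lower ones, at folds of 0.52 and 0.61. Spred1 was at a fold of 0.95. With edgeR's quasi-likelihood test 0 of 7 members and 0 of 12728 records (0%) passed, and DESeq2, limma-voom and the edgeR exact test also called 0 members. At an unadjusted p under 0.05, edgeR counted 1 member of 7, against 12.1% of all records (4.79% as higher in VNS libraries). DESeq2 counted 2 members, against 15.1% of all records, and limma-voom 3, against 14.8%. The members' median log2 fold change was 0.41, beside -0.01 over all records tested. Values above 0 were found for 4 of 7 members and for 49.2% of all records. Without control libraries 1 and 2 the members' median was -0.33, beside 0.01 over all records, with 2 of 7 above 0.

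**Figure D1:**
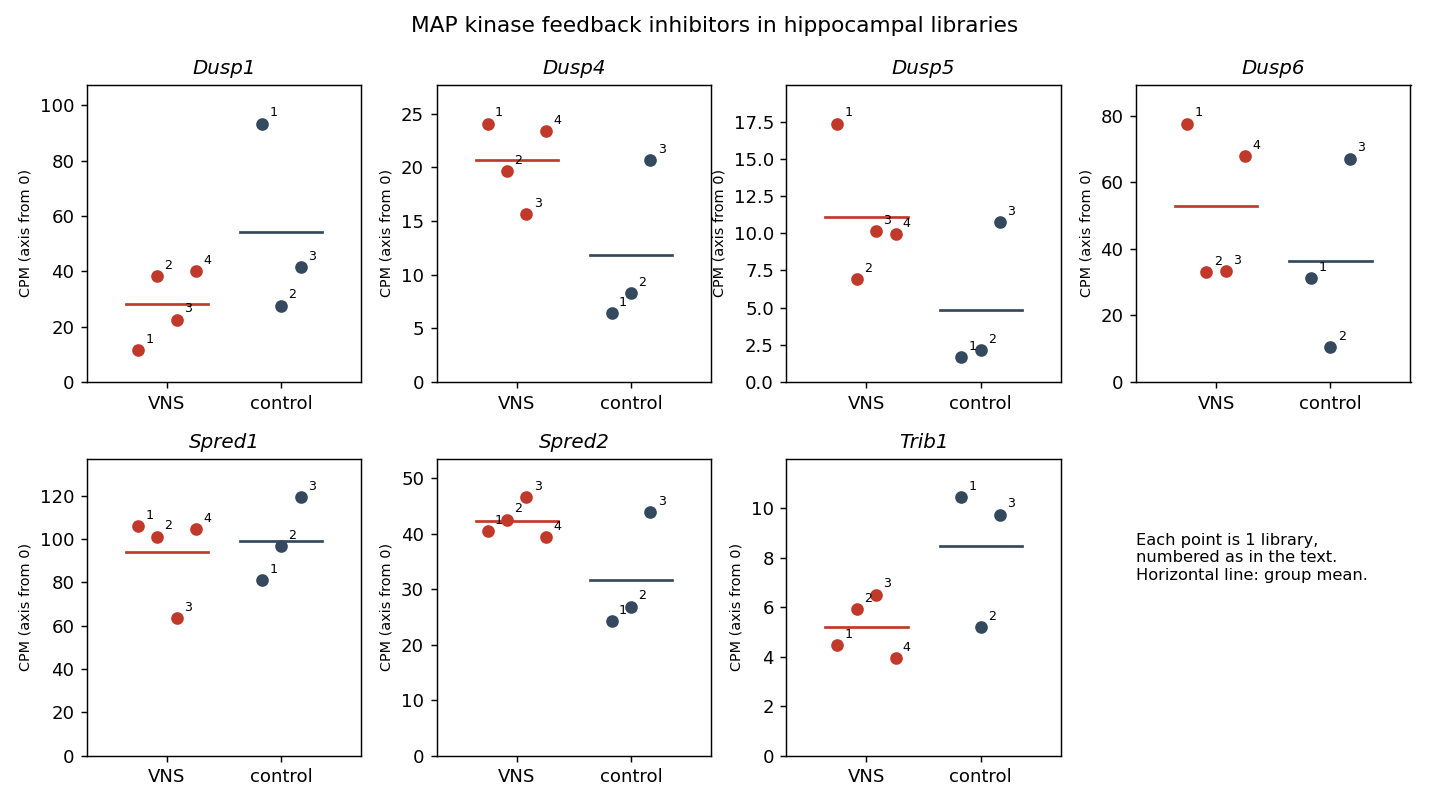
CPM of each member in each hippocampal library, with VNS libraries left of control libraries, points numbered by library, horizontal lines at the group means and a linear axis from 0 in each panel. In Dusp4, Dusp5 and Spred2, control libraries 1 and 2 lie below every VNS library while control library 3 lies among them, and in Trib1 control libraries 1 and 3 lie above every VNS library.

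Dusp1 encodes an immediate early phosphatase of the nucleus that acts on p38, JNK and ERK. Its record (NM_053769, chromosome 10, 16867381 to 16870164 in rn5, plus strand) measured 11.4, 38.3, 22.6 and 40.0 CPM in VNS libraries 1 to 4, against 93.4, 27.6 and 41.5 CPM in control libraries 1 to 3. VNS library 1 was the lowest and control library 1 the highest of the 7, and the groups overlapped through control library 2. Dusp1 averaged 28.0 ± 13.6 CPM in VNS libraries (SD, n = 4) and 54.2 ± 34.7 CPM in control libraries (SD, n = 3). Its log2 fold change was -0.95 (SE 0.51, edgeR adjusted p = 0.43). The value was negative in all 17 other settings, from -1.26 without control library 2 to -0.30 without control library 1.

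Dusp4 encodes a nuclear phosphatase of ERK and JNK. Its record (NM_022199, chromosome 16, 60750785 to 60760965 in rn5, minus strand) measured 24.1, 19.7, 15.7 and 23.4 CPM in VNS libraries 1 to 4, against 6.41, 8.30 and 20.7 CPM in control libraries 1 to 3. Control libraries 1 and 2 were the lowest, and control library 3 lay within the VNS range. Dusp4 averaged 20.7 ± 3.88 CPM in VNS libraries (SD, n = 4) and 11.8 ± 7.77 CPM in control libraries (SD, n = 3). The log2 fold change was 0.82 (SE 0.39, edgeR adjusted p = 0.41), and without control libraries 1 and 2 it was 0.01 (SE 0.27).

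Dusp5 encodes a nuclear phosphatase selective for ERK. Its record (NM_133578, chromosome 1, 281658075 to 281671486 in rn5, plus strand) measured 17.4, 6.89, 10.2 and 9.94 CPM in VNS libraries 1 to 4, against 1.69, 2.14 and 10.7 CPM in control libraries 1 to 3. VNS library 1 was the highest, control libraries 1 and 2 were the lowest, and control library 3 exceeded 3 of the 4 VNS libraries. In VNS library 3 the value rested on 50 counts, with an exact Poisson 95% interval of 7.54 to 13.4 CPM that covers counting error only. Dusp5 averaged 11.1 ± 4.45 CPM in VNS libraries (SD, n = 4) and 4.85 ± 5.09 CPM in control libraries (SD, n = 3). The log2 fold change was 1.20 (SE 0.66, edgeR adjusted p = 0.43), and without control libraries 1 and 2 it was 0.06 (SE 0.44).

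Dusp6 encodes the cytoplasmic phosphatase selective for ERK and is induced by ERK signalling itself. Its record (NM_053883, chromosome 7, 41506397 to 41510627 in rn5, plus strand) measured 77.6, 33.1, 33.3 and 67.7 CPM in VNS libraries 1 to 4, against 31.1, 10.5 and 67.1 CPM in control libraries 1 to 3. Control library 2 was the lowest of the 7, and both groups spanned a wide range, by 2.35-fold among VNS libraries and 6.42-fold among control libraries. Dusp6 averaged 52.9 ± 23.1 CPM in VNS libraries (SD, n = 4) and 36.2 ± 28.7 CPM in control libraries (SD, n = 3). The log2 fold change was 0.56 (SE 0.58, edgeR adjusted p = 0.66), and without control libraries 1 and 2 it turned to -0.33 (SE 0.44).

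The Spred genes act further upstream. Spred1 encodes a membrane protein that binds neurofibromin, the Ras GTPase-activating protein, and brings it to Ras. Its record (NM_001047089, chromosome 3, 115352442 to 115414136 in rn5, plus strand) measured 106.0, 101.1, 63.4 and 104.7 CPM in VNS libraries 1 to 4, against 81.0, 96.6 and 119.1 CPM in control libraries 1 to 3. VNS library 3 was the lowest and control library 3 the highest, and the groups overlapped. The log2 fold change of Spred1 was -0.07 (SE 0.22, edgeR adjusted p = 0.90). Its sign turned without VNS library 3 (0.07) and without control library 3 (0.09).

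Spred2, the paralogue of Spred1, inhibits the same step. Its record (NM_001047094, chromosome 14, 103926069 to 104024316 in rn5, plus strand) measured 40.5, 42.5, 46.6 and 39.4 CPM in VNS libraries 1 to 4, against 24.3, 26.9 and 43.9 CPM in control libraries 1 to 3. The VNS libraries lay close together, with a highest value 1.18-fold the lowest, and control libraries 1 and 2 lay below all of them. The log2 fold change of Spred2 was 0.41 (SE 0.21, edgeR adjusted p = 0.42). It turned to -0.07 (SE 0.19) without control libraries 1 and 2.

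Trib1 encodes a pseudokinase that binds MEK and presents C/EBP proteins to the ubiquitin ligase Cop1. Its record (NM_023985, chromosome 7, 100534391 to 100540925 in rn5, plus strand) measured 4.47, 5.92, 6.50 and 3.94 CPM in VNS libraries 1 to 4, against 10.4, 5.20 and 9.73 CPM in control libraries 1 to 3. All VNS libraries lay below control libraries 1 and 3, and control library 2 lay within the VNS range. The VNS library 3 value rested on 32 counts, with an exact Poisson 95% interval of 4.45 to 9.18 CPM. This interval overlaps that of control library 3, at 8.87 to 10.7 CPM. Trib1 averaged 5.21 ± 1.20 CPM in VNS libraries (SD, n = 4) and 8.45 ± 2.84 CPM in control libraries (SD, n = 3). With edgeR the log2 fold change was -0.72 (SE 0.29, unadjusted p = 0.038, adjusted p = 0.40). At an unadjusted p under 0.05, 7.28% of all records had lower values in VNS libraries, beside 1 of 7 members. The value of Trib1 stayed negative in all 16 other settings that gave one, from -0.98 to -0.55. It was -0.95 (SE 0.34) without control libraries 1 and 2.

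Which control libraries were used decided the calls. Without control library 3, which left the 2 control libraries low in forebrain markers, Dusp4 (log2 fold change 1.51), Dusp5 (2.55) and Spred2 (0.72) rose in VNS libraries, with edgeR adjusted p of 0.0077, 0.0083 and 0.019. In that setting 10.6% of all records passed and 6.24% passed as higher, so calls were common across the genome. Without control libraries 1 and 2, the fit takes the spread of a single control library from the VNS group. Only its log2 fold changes are therefore read. The log2 fold changes of Dusp4, Dusp5, Dusp6 and Spred2 then lay between -0.33 and 0.06, and those of Dusp1, Spred1 and Trib1 at -0.57, -0.35 and -0.95.

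**Figure D2:**
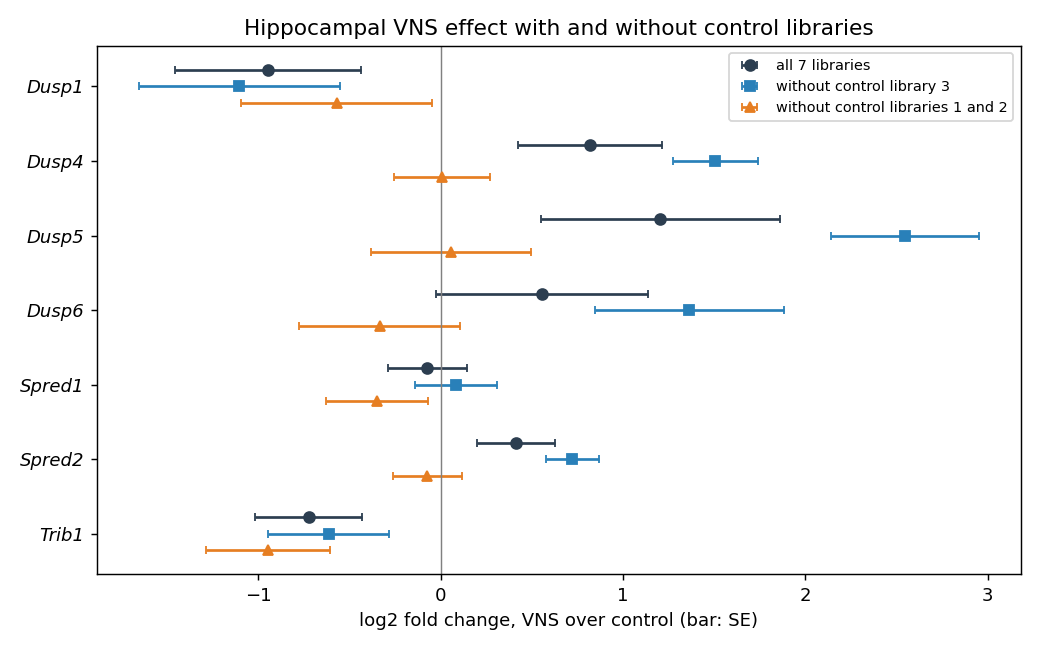
log2 fold change of each member in the hippocampus, VNS over control, with bars for the SE, from all 7 libraries, without control library 3, and without control libraries 1 and 2. Dusp4, Dusp5, Dusp6 and Spred2 move from positive values without control library 3 to values between -0.33 and 0.06 without control libraries 1 and 2, while Dusp1 and Trib1 are negative in all 3 fits.

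Members differed from each other in how they varied over the libraries. Centred on its own mean, Dusp5 ranged from -1.91 in control library 1 to 1.42 in VNS library 1 on the log2 CPM scale, whereas Dusp1 was highest in control library 1 and lowest, at -1.53, in VNS library 1. The root mean square difference between these centred values was largest for Dusp1 and Dusp5 (1.84) among the 21 pairs of members. It was smallest for Spred1 and Spred2 (0.42), followed by Dusp4 and Spred2 (0.43), Dusp4 and Dusp5 (0.54) and Dusp4 and Dusp6 (0.61). The measure also depends on each gene's own spread, which was 0.28 for Spred1, 0.34 for Spred2, 0.70 for Dusp4 and 1.16 for Dusp5. The difference between Spred1 and Spred2 exceeded the spread of either, so it does not show that they varied together. Dusp4, Dusp5 and Spred2 were low in control libraries 1 and 2, as were the forebrain excitatory markers. Dusp6 was low in control library 2 (-1.88), but in control library 1 (-0.31) it lay near VNS libraries 2 and 3 (-0.22 and -0.21). The part of tissue makeup in these patterns was not tested.

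**Figure D3:**
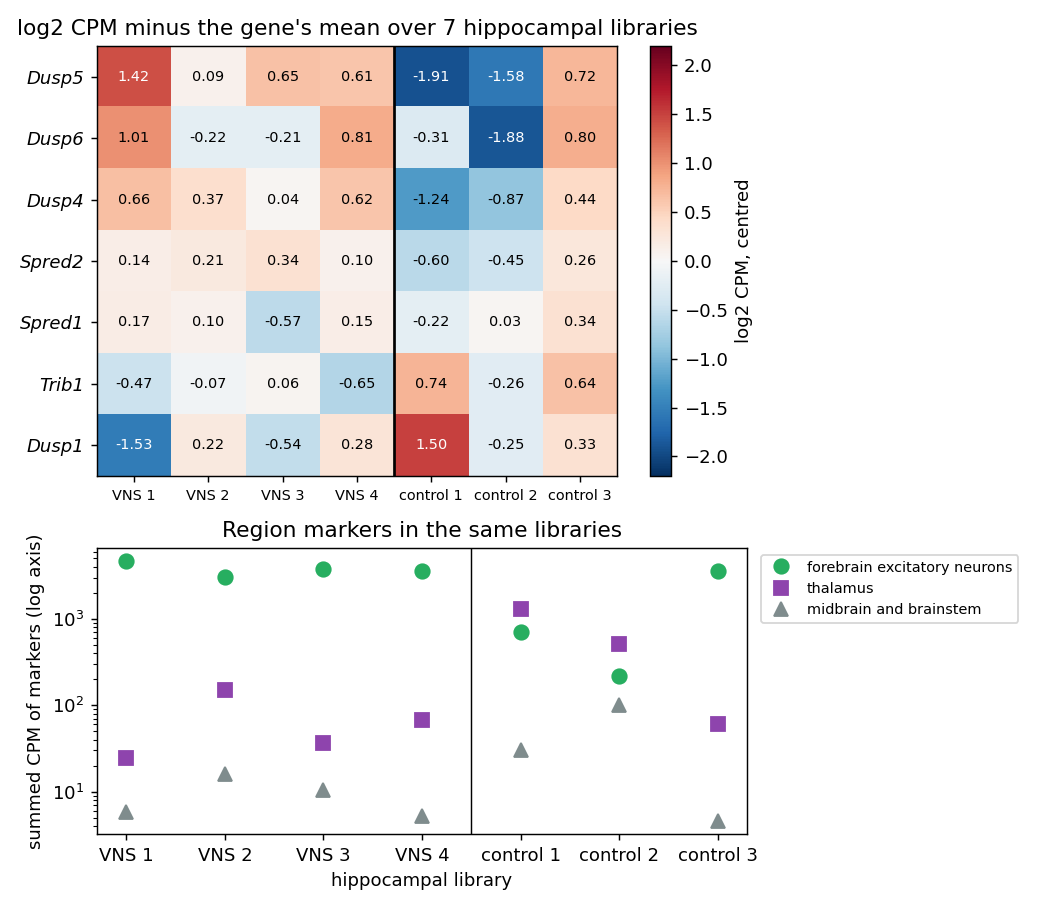
Upper panel, log2 CPM of each member minus its own mean over the 7 hippocampal libraries, with VNS libraries on the left and red for higher values. Lower panel, summed CPM of markers of forebrain excitatory neurons, thalamus, and midbrain and brainstem in the same libraries on a log axis. Control libraries 1 and 2 are low in Dusp5 (-1.91 and -1.58), Dusp4 (-1.24 and -0.87) and forebrain markers, and have the highest summed thalamic markers, which in control library 2 are mostly Slc17a6 and Calb2.

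Ratios of counts within a library do not depend on how libraries are scaled. For 6 of the 21 pairs of members the ratios in VNS libraries did not overlap those in control libraries, and 15 overlapped. The share over pairs of other genes was not computed, so whether 6 is many or few cannot be told. The pairs reuse the same members, include control libraries 1 and 2 and were chosen after values were seen. The 9.28% of single records whose groups did not overlap is not a share of ratios. Taken alone, no member had groups that did not overlap in the hippocampus. Spred2 counts were 9.06, 7.18, 7.16 and 10.0 times those of Trib1 in VNS libraries 1 to 4, against 2.33, 5.16 and 4.51 times in control libraries 1 to 3. The ratio of Dusp4 to Trib1 was 5.38, 3.32, 2.41 and 5.94 in VNS libraries, against 0.62, 1.60 and 2.13 in control libraries. The ratio of Spred1 to Spred2 was 2.62, 2.38, 1.36 and 2.65 in VNS libraries, against 3.34, 3.60 and 2.71 in control libraries. The remaining 3 were Dusp5 to Trib1 and Dusp4 to Spred1, higher in VNS libraries, and Dusp1 to Dusp4, lower in VNS libraries. Trib1 was the denominator in 3 of the 6 pairs. In each of the 6, the control library nearest to the VNS libraries was control library 3, except for Spred2 to Trib1, where it was control library 2.

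Per kilobase of exon, Spred1 was the most abundant member at 70.3 ± 15.2 CPM per kb in VNS libraries (SD, n = 4) and 74.1 ± 14.4 in control libraries (SD, n = 3). Spred2 followed in VNS libraries at 34.4 ± 2.55 CPM per kb, against 25.8 ± 8.70 in control libraries. Spred1 exceeded Spred2 in 7 of 7 libraries. Dusp6, Dusp4 and Dusp1 were at 19.2 ± 8.40, 17.4 ± 3.27 and 14.6 ± 7.06 CPM per kb in VNS libraries, and their order did not hold beyond the spread, since Dusp6 exceeded Dusp4 in 2 of 4 VNS libraries and Dusp4 exceeded Dusp1 in 2 of 4. In control libraries Dusp1 was at 28.1 ± 18.0 CPM per kb and exceeded Spred2 in 1 of 3. The order of the lowest pair differed between the groups. Dusp5 was at 4.59 ± 1.84 CPM per kb in VNS libraries and exceeded Trib1, at 2.64 ± 0.61, in 3 of 4. In control libraries Trib1 was at 4.29 ± 1.44 CPM per kb and exceeded Dusp5, at 2.01 ± 2.11, in 3 of 3.

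The records with the most similar hippocampal patterns were sought among 10750 records with a symbol and a mean of at least 1 CPM, by the root mean square difference of centred log2 CPM over the 7 libraries. For Dusp4 they were Abhd17c (0.10), Iqsec2 (0.12) and Speg (0.13), beside a median of 0.75 over all candidates. For Dusp5 they were Slc16a14, Pde2a and the polo-like kinase gene Plk2 (0.17, 0.17 and 0.18, median 1.19), and for Dusp6 F12 (0.15), Veph1 (0.28) and Galnt9 (0.35). Dusp1 was nearest to Doc2g (0.29), Whrn (0.33) and Zmat4 (0.36), and Trib1 to Ube3d (0.27), Klf4, a zinc finger transcription factor gene (0.27), and Nt5dc1 (0.28). Spred1 was nearest to Pola1, Nudt16l1 and Tmem170b (0.08 each), and Spred2 to Rasl10b, Tbc1d10a and Mark2 (0.07, 0.07 and 0.08). Likeness over 7 libraries from 2 groups describes these libraries only.

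The other genes of the pathway were taken from 8 lists, and in each list 0 records passed in the hippocampus with edgeR. Among 10 other dual-specificity phosphatases tested, 2 had an unadjusted p under 0.05 and both had lower values in VNS libraries, with a list median log2 fold change of -0.15 (-0.10 without control libraries 1 and 2). These were Dusp16, a phosphatase of JNK and p38, at 12.0 ± 4.47 CPM in VNS libraries and 20.4 ± 4.47 in control libraries, and Dusp26, another dual-specificity phosphatase, at 17.8 ± 4.94 CPM in VNS libraries and 33.8 ± 17.9 CPM in control libraries (SD, n = 4 VNS and 3 control). Their log2 fold changes were -0.76 (SE 0.29) and -0.92 (SE 0.36, edgeR adjusted p = 0.40 for both), and Dusp26 passed without control library 3 (adjusted p = 0.045). Without control libraries 1 and 2 the log2 fold changes were -0.36 for Dusp16 and -0.12 for Dusp26. Among 10 other negative regulators of Ras-ERK tested, 0 had an unadjusted p under 0.05 and the median was -0.07 (-0.06 without control libraries 1 and 2). Nf1, the neurofibromin gene whose product Spred1 binds, measured 290.4, 299.0, 245.6 and 247.9 CPM in VNS libraries 1 to 4, against 337.8, 352.9 and 299.4 CPM in control libraries 1 to 3. These groups did not overlap, by a margin of under 1 CPM (log2 fold change -0.29, SE 0.14, edgeR adjusted p = 0.41), and 4.61% of all records lay wholly lower and 4.67% wholly higher in VNS libraries. Pebp1, an inhibitor of Raf, was at -0.22 (SE 0.15, adjusted p = 0.50). Without control libraries 1 and 2, Nf1 was at -0.16 and Pebp1 at 0.04.

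Of 21 tested records of the Ras-ERK cascade, 2 had higher and 2 lower values at an unadjusted p under 0.05 (median 0.00, and -0.05 without control libraries 1 and 2). Rap1a, a Ras-related GTPase, was at -0.68 (SE 0.18) and lower in every VNS library, and the adaptor gene Gab1 was at -0.62 (SE 0.27, edgeR adjusted p = 0.40 for both). Rap1a passed without control library 3 (adjusted p = 0.030), and without control libraries 1 and 2 Rap1a was at -0.39 and Gab1 at -0.17. Of 13 records of the p38, JNK and ERK5 cascades, 0 had an unadjusted p under 0.05 (median -0.04, and 0.11 without control libraries 1 and 2), with Mapk7, which encodes ERK5, at 0.44 (SE 0.19) and Mapk12, which encodes a p38 kinase, at 3.45 ± 0.63 CPM in VNS libraries and 6.91 ± 4.51 CPM in control libraries (SD, n = 4 and 3, edgeR adjusted p = 0.40 for both). Mapk12 passed as lower without control library 3 (adjusted p = 0.019) and turned to 0.54 without control libraries 1 and 2, where Mapk7 was at 0.28. Of 15 receptor tyrosine kinase records, 2 had higher values and 1 a lower one at that level (median 0.08, and -0.06 without control libraries 1 and 2). Fgfr1, a fibroblast growth factor receptor gene, was higher in every VNS library at 97.3, 55.3, 52.9 and 59.4 CPM, against 30.8, 47.5 and 47.3 CPM in control libraries 1 to 3 (0.66, SE 0.26), and Erbb3, expressed in the oligodendrocyte lineage, was at -0.77 (SE 0.32, adjusted p = 0.40 for both). Fgfr1 was at 0.48 and Erbb3 at -0.46 without control libraries 1 and 2. Summed markers of oligodendrocytes, 10 genes with none at 0, were at 2131 to 5044 CPM in VNS libraries and 4414 to 8047 CPM in control libraries, and their part in the value of Erbb3 was not tested.

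Of 21 immediate early gene records, 0 had an unadjusted p under 0.05 (median 0.27, with 15 above 0, or 71.4% beside 49.2% of all records). The direction of this list turned with the control libraries. Without control library 3 the median was 1.37, with 19 of 21 above 0 and 11 passing with edgeR, where 10.6% of all records passed. Without control libraries 1 and 2 the median was -0.65, with 4 of 21 above 0. That fit holds a single control library, so its calls are not set beside those 11. Fos, an AP-1 subunit gene, measured 3.54, 11.7, 6.91 and 10.0 CPM in VNS libraries 1 to 4, against 14.9, 11.7 and 15.6 CPM in control libraries 1 to 3, below every control library by a margin of under 0.1 CPM (log2 fold change -0.81, SE 0.37, edgeR adjusted p = 0.40, and -0.96 without control libraries 1 and 2). VNS library 1 had the lowest Fos value, as it did for Dusp1. Fosl2, another AP-1 subunit gene, has 2 records, so its reads may be split between them and its value is uncertain. The tested record was at 1.33 (SE 0.75, adjusted p = 0.43) and passed without control library 3 (adjusted p = 0.0023). Control library 3, at 5.03 CPM, lay within the VNS range of 3.96 to 6.44 CPM, and without control libraries 1 and 2 Fosl2 was at 0.04 (SE 0.37). Of 15 records of ERK-regulated transcription factors and outputs, 1 had an unadjusted p under 0.05, as lower (median 0.25, and 0.02 without control libraries 1 and 2). This was Ccnd1, which encodes cyclin D1, at -0.44 (SE 0.16), and Myc was at 1.03 (SE 0.45, adjusted p = 0.40 for both). Ccnd1 was at -0.30 and Myc at 0.38 without control libraries 1 and 2. Among the 3 tested partners of Trib1 (median 0.17, and 0.02 without control libraries 1 and 2), Cebpd was at 0.86 (SE 0.35, adjusted p = 0.40) and Cop1 at 0.09 (SE 0.11, adjusted p = 0.73). Cebpd, a C/EBP gene, was at 8.13 to 11.4 CPM in VNS libraries, against 3.52, 3.44 and 8.78 CPM in control libraries 1 to 3. Cebpd passed without control library 3 (adjusted p = 0.0084), but with control library 3 as the lone control its log2 fold change was 0.11 (SE 0.29) and that of Cop1 -0.03.

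In the cortex, counts were low and their strand limits what a member's value means. Per the file header cortex reads were counted with strand option 1, whereas in libraries from this kind of stranded kit the first read runs antisense to the transcript. Of all cortex counts, 35.5% fell in records that overlap an opposite-strand record, and the share was 9.58% for hippocampal counts. The forebrain transcription factor gene Neurod6 had 0 to 6 counts in a cortex library and Slc17a7, the glutamate transporter gene of cortical neurons, 33 to 82. Cortex values are therefore counts of a record, not levels of the named gene, and are not set against hippocampal levels.

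Of the 5 members that reached 10 reads in any cortex library, Dusp6 was the one whose groups did not overlap once scaled. Its record had 31, 25, 29 and 40 counts in VNS libraries 1 to 4, against 20, 25, 12 and 19 in control libraries 1 to 4. VNS library 2 and control library 2 thus tied at 25 counts. Scaled, this was 89.7 ± 16.6 CPM in VNS libraries and 54.6 ± 11.6 CPM in control libraries (SD, n = 4 each), and the lowest VNS library, at 74.3 CPM, lay above the highest control library, at 65.5 CPM. The log2 fold change was 0.71 (SE 0.33, unadjusted p = 0.044, edgeR adjusted p = 0.99975) and did not pass. Among all cortex records tested 2.29% did not overlap (1.26% higher in VNS libraries), and 2.39% had an unadjusted p under 0.05 (1.18% higher and 1.21% lower in VNS libraries). The value lay between 0.60 and 0.83 in the 17 other settings and passed in none of them.

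**Figure D4:**
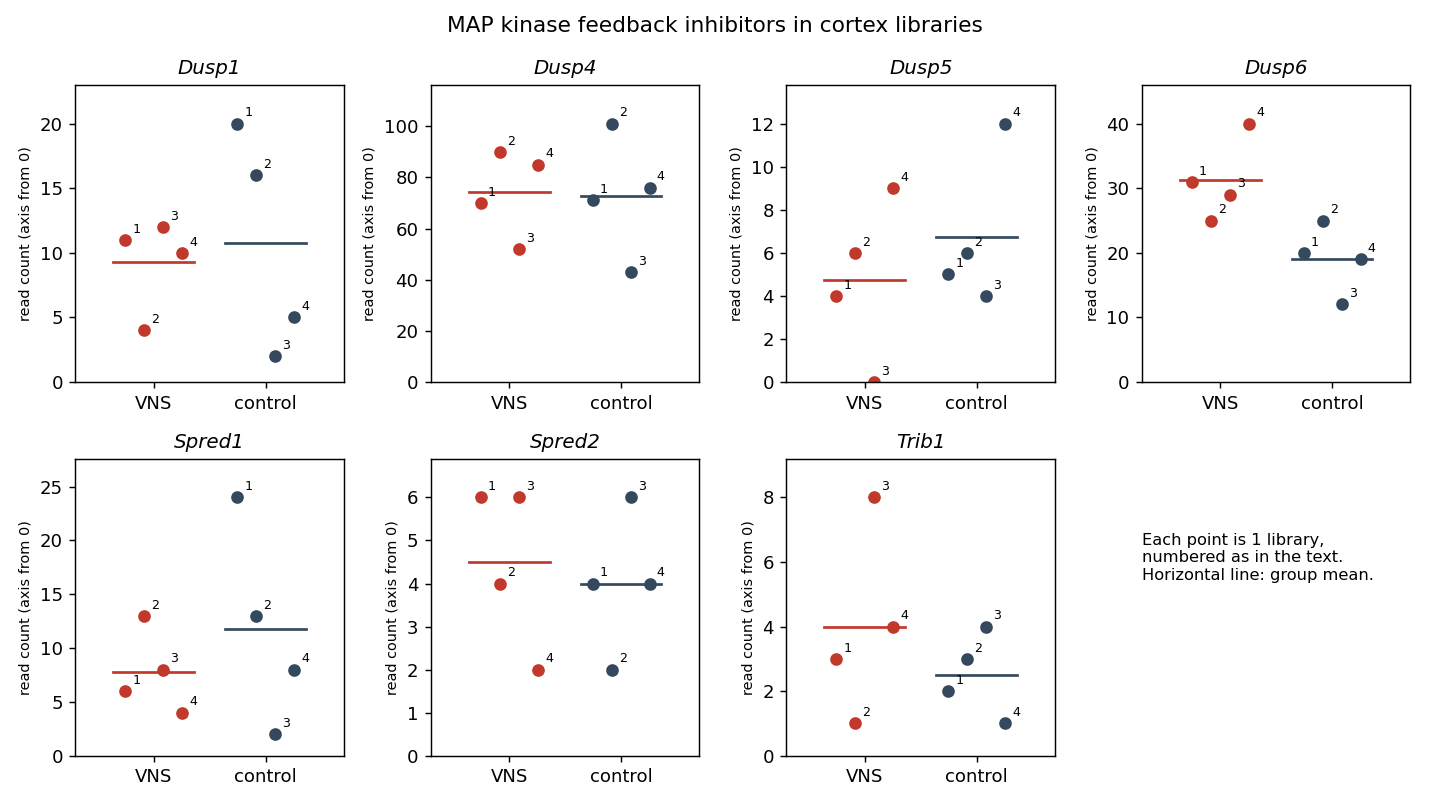
Read counts of each member's record in each cortex library, with VNS libraries left of control libraries, points numbered by library and lines at the group means. Dusp6 has 25 to 40 counts in VNS libraries and 12 to 25 in control libraries, and Spred2 and Trib1 have at most 6 and 8 counts in any library.

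Dusp4 had the most cortex counts, with 70, 90, 52 and 85 in VNS libraries 1 to 4, against 71, 101, 43 and 76 in control libraries 1 to 4. The groups overlapped (log2 fold change 0.04, above 0 as in 47.9% of cortex records, SE 0.26, edgeR adjusted p = 0.99975). Dusp1 had 11, 4, 12 and 10 counts in VNS libraries, against 20, 16, 2 and 5 in control libraries (-0.23, SE 0.60, adjusted p = 0.99975). Dusp5 and Spred1 reached 10 reads in some library but were not tested. Dusp5 had 4, 6, 0 and 9 counts in VNS libraries, against 5, 6, 4 and 12 in control libraries, and Spred1 had 6, 13, 8 and 4 counts in VNS libraries, against 24, 13, 2 and 8 in control libraries. Of 3884 cortex records, 1 passed (0.0257%), and 0 of the 3 members tested did, with edgeR, DESeq2, limma-voom or the edgeR exact test.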

How the data were processed

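Poly-A selected cortex RNA (8 libraries) and ribosome-depleted hippocampal RNA (7 libraries) were sequenced. The authors deposited unnormalized counts for RefSeq transcript records. Per the file headers they used featureCounts 1.4.6-p2 on rn5, with strand option 1 for cortex and none for hippocampus. The headers name no paired-end option, so both reads of a fragment may be counted. The submitters' processing notes also name FastQC 0.10.1, Trimmomatic, Bowtie2, SAMtools 0.1.19 and edgeR. The deposited exon lengths, in bases, were used for levels per kb (other values were not used). Names came from a RefSeq table of GRCr8, which matched 17339 of 18278 records.

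Records were filtered (filterByExpr, minimum count 10, minimum total 15), TMM-scaled and tested with edgeR 4.0.16 glmQLFit and glmQLFTest in R 4.3.3 (two-sided, Benjamini-Hochberg over all records, threshold 0.05) within each tissue. SE is the log2 fold change over the root of its F statistic. Patterns used log2 CPM with a prior count of 2. Scripts were tested on simulated data. No pair of libraries agreed within sampling noise (chi-square of at least 3.44 for each degree of freedom). Alternatives were other scalings, no filter, DESeq2 1.42.0, limma-voom (limma 3.58.1), the exact test, a fit over 15 libraries, other record sets and omitted libraries. The members, lists and alternatives were chosen with earlier results of these data known. Named genes were all members, the 2 records of smallest hippocampal p in each list and the 3 nearest records per member. Pathway lists without control libraries, count ratios between members and the cortex marker genes were chosen after values were seen.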

Additional observations from a re-analysis of the deposited data

Results flagged for a closer look

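Among 21 groups of 4 libraries, formed by each member in VNS hippocampus, VNS cortex and control cortex, 3 held a library far from the other 3, where chance gives about 1 in 20. Spred1 was at 63.4 CPM in VNS library 3 of the hippocampus, against 101.1 to 106.0 CPM in the other VNS libraries. That library had 74.3% of its counts in ribosomal and 7SL RNA records, and the part of this in the value was not tested. Dusp4 was at 137.6 CPM in cortex control library 3, against 221.5 to 238.6 CPM in the other cortex controls. Dusp5 was at 35.0 CPM in cortex control library 4, from 12 counts, against 12.8 to 16.4 CPM from 4 to 6 counts in the others. The 3 control libraries of the hippocampus were too few for this check.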

How the results depend on the processing

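Low counts limit the cortex, where 4 members were not tested. The parts of sequencing depth and of the strand option in these low counts were not tested. Over all alternatives, 113 of 117 member values in the hippocampus, 46 of 51 in the cortex and 263 of 266 values of named list genes kept their sign. In the hippocampus, 17 records passed with DESeq2 and 6 with the exact test. Leaving out a library gave 0 to 1377 records and 0 to 3 members, the most in each case without control library 3. The ranges over omitted libraries were 0.52 to 1.51 for Dusp4, 0.80 to 2.55 for Dusp5, 0.25 to 0.72 for Spred2 and -0.20 to 0.085 for Spred1 (log2). Without control libraries 1 and 2, signs turned for Dusp6 (-0.33), Spred2 (-0.072), Pebp1 (0.041), Mapk12 (0.54) and Cop1 (-0.033). The cause was not tested. In the cortex, 5 records passed with no filter, 0 with limma-voom, 2 with the exact test and 0 to 4 with a library omitted. Cortex Dusp1 was at 0.066 with limma-voom and at -0.53 to 0.41 over omitted libraries, and Dusp4 at -0.088 to 0.20. The fit over 15 libraries tested 5 members.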

Other observations

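VNS library 1 of the hippocampus was the deepest library (51463555 counts) and held the extreme value of 4 members. It had the lowest Dusp1 (11.4 CPM) and the highest Dusp4 (24.1 CPM), Dusp5 (17.4 CPM) and Dusp6 (77.6 CPM) of the 7 libraries. Dusp1 counts were 0.15 times those of Dusp6 in that library, against 0.59 to 1.16 times in the other VNS libraries and 0.62 to 3 times in control libraries. This ratio and these extremes were picked out after the values were seen. The same library had the highest summed forebrain markers (4727 CPM) and the most Gfap, an astrocyte filament gene (1996 CPM, against 754.6 to 1070.3 CPM in the other VNS libraries and 478.2 to 1018.4 CPM in control libraries). The other astrocyte markers were mixed. Slc1a2 was at 18.3 CPM there, below VNS library 3 (21.5 CPM) but above VNS libraries 2 and 4 (10.6 and 10.1 CPM). It was at 5.38 to 12.4 CPM in control libraries. Aldh1l1 was lowest in VNS library 1 of the 7 libraries (15.1 CPM), and Gja1 was lowest there of the VNS libraries (495.3 CPM). Aqp4 and Slc1a3 were at 0 in every library. Without VNS library 1 the log2 fold change of Dusp1 was -0.68 and that of Dusp6 0.31, and neither passed with edgeR (adjusted p = 0.60 and 0.85).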
